A study of Mus musculus with 2 samples.

Results

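The 10 genes described here make up the core of MHC class I antigen presentation, the display of internal peptides at the cell surface, and include Qa-1, the class I molecule that CD8+ regulatory T cells recognise on other cells. They were chosen by symbol, as B2m, H2-K1, H2-D1, H2-T23, H2-M3, Tap1, Tap2, Tapbp, Erap1 and Nlrc5, out of 22609 genes listed, and each was found in both deposited tables. The data are RNA sequencing counts of CD8+ regulatory T cells, sorted by flow cytometry from the spleens of naïve mice at an age of 3 months. Wild-type (WT) mice gave 1 library. Mice labelled Tgfbr2-/-Eomes-/- gave the other, called the DKO library below, and by that label they lack both the TGF-beta receptor gene Tgfbr2 and the T-box factor Eomes. The labels name no agent or further allele shared by both groups, and they do not say how the genes were deleted, from which strain the mice came or how many mice made up a library. The comparison addresses what the joint loss of TGF-beta signalling and Eomes does to these cells, here for their class I genes.

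As background, a class I molecule is a heavy chain bound to beta-2 microglobulin, the product of B2m, and to a short peptide. H2-K1 and H2-D1 encode the classical heavy chains. H2-T23 encodes Qa-1, a non-classical heavy chain that mostly carries a leader peptide cut from other class I chains and is read by CD94/NKG2 receptors and by some T cell receptors. H2-M3 encodes a heavy chain specialised for peptides with a formylated first residue. Peptides made in the cytosol enter the endoplasmic reticulum through the transporter formed by TAP1 and TAP2, are trimmed there by the aminopeptidase ERAP1, and are loaded with the help of tapasin, the product of Tapbp. NLRC5 is the transactivator that assembles on class I promoters, also in lymphocytes.

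The libraries held 22307065 (WT) and 19661212 (DKO) counts assigned to genes. Levels in CPM, counts scaled to a common library size, use these totals and TMM factors, which align the bulk of genes between libraries. There was 1 library per genotype, so no difference could be tested against variation between mice, and no p-value is given. Each interval is an exact 95% interval of counting error and compares the 2 libraries, not the genotypes. Both targeted genes were lower in the DKO library without being absent, Eomes at 469 and 180 CPM and Tgfbr2 at 357 and 244 CPM, and counts over whole genes do not show whether a deleted part was read. T cell and CD8 transcripts were abundant in both libraries, with Cd8a at 998 and 978 CPM in the WT and DKO libraries. Of 11 T cell identity genes, 9 had an interval below a ratio of 1 and 0 one above it, with a median log2 ratio of -0.22. All 11 reached 100 CPM, and among all genes of at least that level 54.7% had an interval below 1. Of 6 measured genes of CD8 regulatory identity, Cd44, Klra7 and Icosl had intervals above 1 and Il2rb, Ikzf2 and Cxcr5 below it. Il2rb stood at 2675 and 2213 CPM, Icosl was 1.62-fold higher (1.45 to 1.80), and Cxcr5, the follicle homing receptor, was 4.66-fold lower in the DKO library (4.29 to 5.07), at 155 and 33.4 CPM. Markers of other cells were present too: all 8 marker lists of other cell types had a median log2 ratio above 0, from 0.39 for plasma cells to 2.03 for neutrophils. In such bulk samples, fewer cells of a type and less RNA per cell cannot be told apart.

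Class I presentation was strongly transcribed in both libraries and differed little between them. The 10 genes lay between 1.19-fold lower (Erap1) and 1.45-fold higher (H2-M3) in the DKO library. All 10 passed the minimum of 1 CPM in either library. None reached a 2-fold difference. Of the 11735 genes tested, 11.6% were 2-fold higher or more and 3.6% were 2-fold lower or more, with intervals that did not hold 1. At a limit of 1.5-fold the count was again 0 of 10, against 17.7% higher and 8.41% lower among all genes tested. Most of these genes are abundant, and among the 2627 genes of at least 100 CPM, a level that 9 of the 10 reached, 2.17% were 2-fold higher or more and 0.761% lower. At 1.5-fold these shares were 4.07% and 3.65%.

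Smaller differences were mostly towards the DKO library. The interval lay above a ratio of 1 for 7 genes, below it for 2 (Tapbp and Erap1) and across it for 1 (Tap2), and the ratios of Tapbp and Tap2 passed 1 with T cell identity genes or total counts as the scale. With DESeq2 size factors the interval of Tapbp also reached across 1, leaving 1 gene below. Among all genes tested 35.8% had an interval above 1 and 35.7% one below 1, and among genes of at least 100 CPM the shares were 27.6% above and 54.7% below. The 10 genes had a median log2 ratio of 0.16, beside 0.00 over all genes tested and -0.09 over genes of at least 100 CPM. Scaling by 11 T cell identity genes, which had a median log2 ratio of -0.22, would move every log2 ratio up by 0.22. The median of the 10 genes was then 0.37 and that of all genes tested 0.22, and the difference between those medians stayed at 0.16. With that scaling 57.1% of all genes tested had an interval above 1 and 17.7% one below it.

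**Figure D1:**
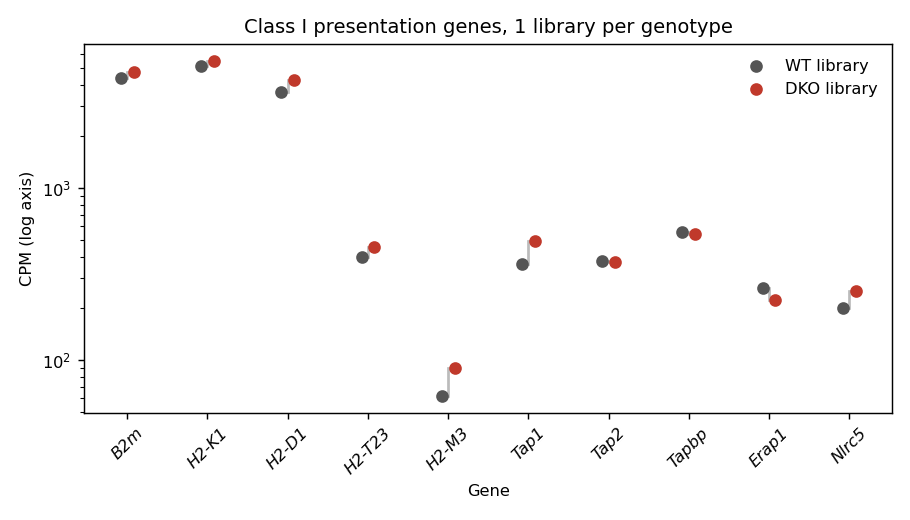
Level of each of the 10 genes in CPM (log axis) in the WT library (grey) and the DKO library (red), 1 library per genotype. B2m, H2-K1 and H2-D1 lie above all others in both, and H2-M3 is the lowest, at 61.8 and 89.8 CPM.

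Beta-2 microglobulin and the classical heavy chains were among the most abundant transcripts of these cells. B2m, the shared light chain, gave 95610 WT counts and 94819 DKO counts, at 4359 and 4742 CPM. It ranked 10th and 7th of all genes by count and was 1.09-fold higher in the DKO library (interval 1.08 to 1.10). H2-K1 gave 112454 and 110180 counts, at 5126 and 5511 CPM, with a 1.07-fold higher DKO level (1.07 to 1.08), from rank 9 to rank 6. The raw counts of both genes were lower in the DKO library, whose total was also lower, so the direction of these small ratios rests on the scaling. It was the same under each of the 4 scalings compared.

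H2-D1 stood slightly further from 1 than H2-K1. Its counts were 79109 and 85177 and its levels 3606 and 4260 CPM, ranked 14 and 12. It was 1.18-fold higher in the DKO library (1.17 to 1.19). Relative to H2-K1 within the same library, which needs no scaling, H2-D1 went from 0.703 to 0.773 counts per H2-K1 count, a change of 1.10-fold (1.09 to 1.11). H2-K1 relative to B2m changed by 0.988-fold (0.976 to 1.00), an interval that reached 1.

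H2-T23, the Qa-1 gene, was detected in the RNA of both sorted samples, at a much lower level than the classical chains. WT counts were 8713 and DKO counts 9081, at 397 and 454 CPM. Qa-1 mRNA was 1.14-fold higher in the DKO library (1.11 to 1.18). This log2 ratio of 0.19 lay at percentile 65.8 among all genes tested and 84.6 among genes of at least 100 CPM. The ratio lay between those of H2-K1 and H2-D1: H2-T23 counts per H2-K1 count changed by 1.06-fold (1.03 to 1.10), and per H2-D1 count by 0.968-fold (0.938 to 0.998).

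H2-M3 was the least abundant heavy chain of the 4 and the one with the highest ratio. Its counts were 1356 and 1795 and its levels 61.8 and 89.8 CPM. It was 1.45-fold higher in the DKO library (1.35 to 1.56). Its counts per H2-K1 count changed by 1.35-fold (1.26 to 1.45) and per H2-T23 count by 1.27-fold (1.18 to 1.37), so the difference also appeared when another heavy chain of the same library served as the yardstick. The upper end of its interval passed 1.5-fold, and under scaling by total counts H2-M3 itself did, at a log2 ratio of 0.59.

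Per length, the make-up of the heavy chain pool was nearly the same in both libraries. Counts were divided by the length of the longest protein-coding transcript in GENCODE M21, since the annotation behind the deposited counts is not given in the sources used here. H2-K1 then took 61.0% of the 4 heavy chains (WT) and 58.7% (DKO), and H2-D1 33.0% and 34.9%. H2-T23 took 5.19% and 5.32%, and H2-M3 0.827% and 1.08%. B2m stood at 0.976 (WT) and 0.951 (DKO) of the sum of the 4 on this scale, a value that rests on the length correction, since it was 0.474 and 0.460 in counts and 0.885 and 0.861 per unique window. Across all 10 genes the order by CPM per kilobase was B2m, H2-K1, H2-D1, H2-T23, Tapbp, Tap1 and Tap2, followed in the WT library by Erap1 (46.8), H2-M3 (43.0) and Nlrc5 (26.4). In the DKO library H2-M3 (62.4) came before Erap1 (39.4) and Nlrc5 (33.3). No neighbours in either order had overlapping exact Poisson intervals of counting error, but with 1 library their order cannot be set against the spread between mice.

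How much of each heavy chain could be counted differs, because class I genes are close copies of each other. Among windows of 50 bases, the stated read length, all windows of B2m and Nlrc5 and 99.4% of those of H2-M3 occurred in no other gene's GENCODE M21 transcripts. The share was 91.2% for H2-K1, 85.7% for H2-D1 and 70.2% for H2-T23. H2-K1 shared most with H2-D1, H2-D1 with H2-Q1, and H2-T23 with H2-T-ps. Reads from shared windows would fall in the deposited row of non-unique alignments, so the level of H2-T23 is the most uncertain of the heavy chains. Divided by unique windows in place of length, H2-T23 took 6.55% and 6.70% of the 4.

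The promoters of some of these genes carry all or part of a known arrangement of short motifs, which is shown here as a description of sequence. Any link between the motifs and the ratios was not tested. The stretches come from RefSeq promoters on GRCm38.p6, a later build than the mm9 named for the counts, and are read 5′ to 3′ on the gene's strand. These 3 stretches end at or just before the transcript start and touch no exon annotated in GENCODE M21. Capitals mark the motif letters listed after them. B2m lies at chr2:122147527-122147685 on the plus strand, H2-K1 at chr17:34000348-34000507 on the minus strand and H2-M3 at chr17:37270074-37270219 on the plus strand.
B2m: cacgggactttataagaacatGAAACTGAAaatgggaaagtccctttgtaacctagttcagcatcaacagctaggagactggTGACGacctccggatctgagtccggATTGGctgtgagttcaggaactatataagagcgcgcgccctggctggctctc
H2-K1: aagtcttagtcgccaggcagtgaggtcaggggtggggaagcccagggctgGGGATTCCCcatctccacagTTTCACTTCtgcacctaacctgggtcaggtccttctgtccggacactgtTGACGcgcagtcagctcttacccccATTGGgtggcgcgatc
H2-M3: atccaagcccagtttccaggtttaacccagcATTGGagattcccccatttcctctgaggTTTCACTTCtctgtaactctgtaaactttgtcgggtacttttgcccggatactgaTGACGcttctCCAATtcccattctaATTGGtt

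The letters searched on both strands were GGGATTCCC (kappa B), GAAANNGAA and GAANNGAAA (2 spacings of an interferon response core, the second chosen after the promoters were read), TGACG (core of the X2 box), ATTGG (core of the Y box) and GGTGTGA (a T-box half-site). A promoter window of 250 bases before the start was found for 8 of the 10 genes, the exceptions being Tap2 and Nlrc5. All 250 bases of the windows of H2-D1, Tap1, Tapbp and Erap1 and 154 of those of H2-T23 lie in exons annotated in GENCODE M21, so these windows are not purely upstream sequence. GGGATTCCC was in 2 of the 8, H2-K1 and H2-D1, and in 0.301% of 32851 RefSeq promoter windows. TGACG was in 5 of 8, namely H2-K1, H2-D1, H2-M3, B2m and Tap1, against 17.8% of all windows, and ATTGG in 7 of 8 against 33.8%. GAAANNGAA was in B2m, H2-T23 and Erap1, against 7.13%. GAANNGAAA was in H2-K1, H2-D1 and H2-M3, and in 6.31% of all windows. It was chosen after these promoters were read, so its matches here cannot be compared with that share. GGTGTGA was in 0 of 8, against 3.33%. No 2 matches overlapped in these 8 windows.

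The classical genes H2-K1 and H2-D1 are nearly identical over the block from the kappa B letters to the interferon letters. The block lies at chr17:34000429-34000457 on the minus strand for H2-K1 and at chr17:35262924-35262952 on the plus strand for H2-D1, both on GRCm38.p6, the latter within an annotated exon. It differs at 1 of 29 bases, A17T, counted from the first base of the block with the H2-K1 base first. A match of letters is a description of the sequence and does not show a bound site.
H2-K1 block: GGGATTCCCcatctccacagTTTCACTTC
H2-D1 block: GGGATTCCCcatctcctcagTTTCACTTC

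**Figure D2:**
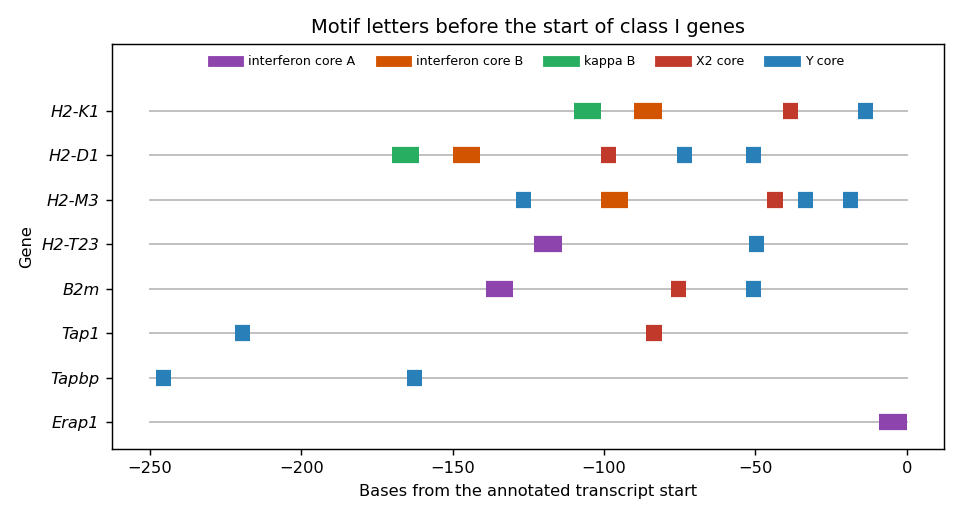
Position of the motif letters in the 250 bases before the annotated transcript start (x axis, bases) of the 8 genes with a promoter window. Coloured boxes are matches on either strand, and interferon core A and B stand for the 2 spacings searched. H2-K1 and H2-D1 share 1 order of kappa B, interferon, X2 and Y letters, shifted along the axis, and the T-box half-site had no match.

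The peptide transporter was unequal between its subunits. Tap1 gave 7961 WT counts and 9826 DKO counts, at 363 and 491 CPM, and was 1.35-fold higher in the DKO library (1.31 to 1.39). Tap2 gave 8305 and 7416 counts, at 379 and 371 CPM, with a ratio of 0.980 (0.949 to 1.01). Tap1 per Tap2 changed by 1.38-fold (1.32 to 1.44), a value free of scaling. Exons of antisense Gm15821 and Gm20496 cover 18.5% of the exonic bases of Tap2. No strand setting is given for the counts, so the Tap2 count could be affected there. Per kilobase there were 1.12 Tap1 for each Tap2 (WT) and 1.54 (DKO). The log2 ratio of Tap2 was -0.03 and turned to 0.02 under scaling by total counts and to 0.19 under scaling by T cell identity genes.

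The TAP genes lie among immunoproteasome genes. In GENCODE M21 the order on chromosome 17 is Psmb9, Tap1, Psmb8, Tap2, and Psmb9 and Tap1 are read away from each other. Psmb9, a catalytic subunit induced by interferon, gave 4281 and 5143 counts and was 1.32-fold higher in the DKO library (1.27 to 1.37). Tap1 per Psmb9 changed by 1.03-fold (0.977 to 1.08). Psmb8, another such subunit, had 15363 and 14124 counts and a ratio of 1.01 (0.986 to 1.03), below that of Tap1, which it also adjoins. Tap2 per Psmb8 changed by 0.971-fold (0.934 to 1.01), and 5.83% of the windows of Psmb8 are shared with Gm20496, which is antisense to Tap2. The intervals of these 2 changes reached across 1, which does not show that the genes are equal, and these 2 pairings were singled out after the ratios were known. Psmb9 and Tap1 exons overlap over 3.87% of the exonic bases of Tap1 on opposite strands, and no strand setting is given for the counts, so reads there could go to either gene.

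Tapbp and Erap1, the loading and trimming members, did not share the higher level of Tap1. Tapbp gave 12194 and 10822 counts, at 556 and 541 CPM, with a ratio of 0.974 (0.949 to 0.999). Its log2 ratio of -0.04 turned to 0.01 under scaling by total counts and to 0.18 under scaling by T cell identity genes, so its direction depends on the scaling. Erap1 gave 5789 and 4450 counts, at 264 and 223 CPM, with a 1.19-fold lower DKO level (1.14 to 1.23). It was the 1 gene of the 10 with a log2 ratio below 0 under each of the 4 scalings, down to -0.03 with T cell identity genes. Erap1 per B2m changed by 0.775-fold (0.745 to 0.807). Exons of the antisense neighbour Cast cover 11.5% of the exonic bases of Erap1, and exons of antisense Gm19412 cover 24.9% of those of Tapbp.

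Nlrc5 had a higher ratio than B2m and the classical chains. It gave 4395 WT counts and 5048 DKO counts, at 200 and 252 CPM. The DKO library was 1.26-fold higher (1.21 to 1.31), at percentile 73.5 among all genes tested and 91.9 among genes of at least 100 CPM. Its counts per B2m count changed by 1.16-fold (1.11 to 1.21). Of the 45 pairs that can be formed from the 10 genes, 42 had a change in their within-library ratio with an interval that left out 1. The exceptions were B2m with H2-K1, H2-M3 with Tap1, and Tap2 with Tapbp. At these counts small changes pass the interval, and pairs of other genes were not compared.

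**Figure D3:**
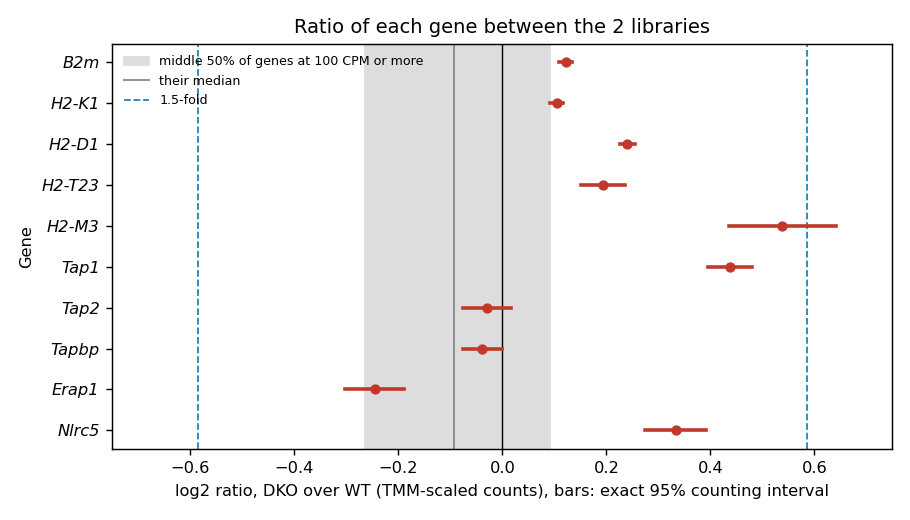
Log2 ratio of each gene, DKO over WT, from TMM-scaled counts, with exact 95% intervals of counting error (bars). The grey band holds the middle 50% of genes of at least 100 CPM, the grey line is their median, and the dashed lines mark 1.5-fold. H2-M3, Tap1 and Nlrc5 lie furthest to the right, Erap1 lies furthest to the left, and Tap2 and Tapbp lie just left of 0, a side they leave when scaled by total counts or T cell identity genes.

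Other class I-like heavy chains differed in both directions. Of 29 such genes considered, 26 were in the tables and 13 reached 1 CPM, of which 1 passed 2-fold upward in the DKO library, 1 passed it downward and 11 did not reach it. Under T cell identity scaling 4 passed upward (Hfe, H2-M2, H2-Q8 and H2-T10) and 1 downward. Among all genes tested, 11.6% passed upward and 3.6% downward with TMM scaling, and 14.5% and 2.72% under T cell identity scaling. Hfe, which regulates iron uptake, was 2.01-fold higher (1.76 to 2.30), from 347 to 635 counts. H2-Q8 was 1.84-fold higher (1.62 to 2.09) and H2-M2 1.90-fold higher (1.46 to 2.49). Fcgrt, the neonatal Fc receptor, was 1.83-fold lower (1.73 to 1.94), from 154 to 84.3 CPM, while Cd1d1, which presents lipids to NKT cells, had a ratio of 1.19 (1.05 to 1.34) and H2-T22 one of 0.982 (0.752 to 1.28), on either side of 1 depending on the scaling.

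The lower gene was H2-Q1, named here after its values were seen. Its 77 WT counts stood against 2 DKO counts, a ratio of 0.0354 (0.00339 to 0.106). This difference exceeds those of the 10 genes by far, although H2-Q1 lay under 5 CPM in both libraries and 77.1% of its windows were unique. H2-Q7 was listed at 0 in both libraries, which allows up to 3 counts, or 0.137 and 0.150 CPM. Of the windows of H2-Q7, 65.1% occurred in no other gene's transcripts, close to the 65.0% of H2-Q6, which had 2911 and 2320 counts. Why H2-Q7 stood at 0 was not tested, and a count of 0 need not mean that the gene is silent.

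Partners in peptide supply and loading were mostly near 1 or slightly lower. Of 17 genes, none differed 2-fold, none was 1.5-fold higher and 2 (Thop1 and Npepps) were 1.5-fold lower, with Npepps short of that limit when scaled by total counts or T cell identity genes. Among all genes tested 17.7% were 1.5-fold higher and 8.41% were 1.5-fold lower. The list had a median log2 ratio of -0.18 that T cell identity scaling turned to 0.04. Calr, a chaperone of the loading complex, was 1.26-fold lower (1.22 to 1.29) and Pdia3, the oxidoreductase bound to tapasin, 1.11-fold lower (1.08 to 1.13). All 5 endoplasmic reticulum chaperone genes of the list lay below 0 on the log2 scale, each with an interval below 1. All 5 reached 100 CPM, a level at which 54.7% of genes had an interval below 1. Of the 5, 2 (Pdia3 and Hspa5) turned positive under scaling by T cell identity genes. The peptidase genes Thop1 and Npepps were 1.82-fold lower (1.60 to 2.09) and 1.51-fold lower (1.40 to 1.64). Of the 7 peptidase genes beside Erap1, 4 had an interval below 1 and 2 one above it, beside 35.7% and 35.8% of all genes tested. Under T cell identity scaling 3 of the 7 had a log2 ratio above 0. Psmb10, the other catalytic immunoproteasome subunit, had a ratio of 0.875 (0.847 to 0.905), which T cell identity scaling turned positive.

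Regulators of class I genes differed in both directions. Of 21 genes, 3 passed 2-fold upward in the DKO library and none downward, beside 11.6% and 3.6% of all genes tested. The list had a median log2 ratio of -0.04 that turned positive with total counts or T cell identity genes as the scale. With the latter 5 passed, Irf8 and Ezh2 in addition, beside 14.5% of all genes tested. Ciita, the class II counterpart of Nlrc5, was 3.01-fold higher (2.76 to 3.28), from 32.0 to 96.3 CPM, Ifngr2, a chain of the interferon-gamma receptor, 2.75-fold higher (2.35 to 3.23), and Prdm1, a transcriptional repressor active in effector lymphocytes, 2.43-fold higher (2.07 to 2.86). Irf8, which is abundant in B cells and dendritic cells, was 1.89-fold higher (1.79 to 1.99). Irf1, which carries interferon signals to class I promoters, was 1.12-fold higher (1.09 to 1.16). Irf2 had a ratio of 0.903 (0.854 to 0.955), with its direction reversed by T cell identity scaling. Of 7 genes for factors that bind the X and Y boxes, Rfx5 was 1.26-fold higher (1.14 to 1.39). An interval below 1 was found for 5 of the 7, beside 35.7% of all genes tested. Under T cell identity scaling 4 of the 7 had a log2 ratio above 0.

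Most class II presentation genes had larger ratios than the 10 class I genes, the exception being H2-Ob, at 1.42-fold higher (1.33 to 1.52) below H2-M3. All 9 had intervals above 1, 6 passed 2-fold, and H2-DMa, H2-Oa and H2-Ob did not, with a median log2 ratio of 1.37. Among all genes tested, 35.8% had an interval above 1 and 11.6% were 2-fold higher or more. Their summed level went from 1909 to 5116 CPM, while that of the 10 class I genes went from 15312 to 16936 CPM. The chains of the class II molecules, H2-Aa, H2-Ab1 and H2-Eb1, were 3.21-fold (3.14 to 3.29), 2.73-fold (2.66 to 2.81) and 2.68-fold (2.61 to 2.76) higher. H2-DMb1, part of the class II peptide editor, was 2.83-fold higher (2.51 to 3.21) and Cd74, the class II chaperone, 2.59-fold higher (2.54 to 2.64).

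Class II genes are transcribed by B cells, dendritic cells and macrophages, and most markers of these cells were also higher. Of 7 B cell markers of at least 1 CPM, 6 had a log2 ratio above 0, and all 10 listed summed to 55.5 and 72.7 CPM, with Ebf1 at 0 in the DKO library and Cr2 2.18-fold lower there (1.46 to 3.38). All 9 dendritic cell markers were above 0, with a sum 2.32-fold higher in the DKO library. Of 11 monocyte and macrophage markers 10 were above 0, with sums of 1106 and 2021 CPM, and all 9 neutrophil markers were, with sums of 595 and 2632 CPM. These cells also transcribe class I genes, and their part in the ratios of the 10 genes was not tested.

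**Figure D4:**
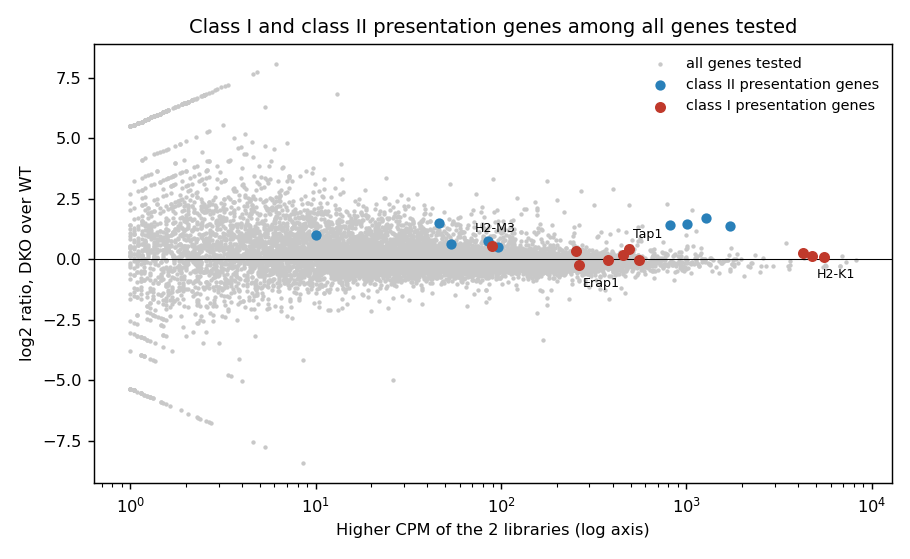
Log2 ratio (DKO over WT) of all 11735 genes tested against the higher CPM of the 2 libraries (log axis), with the 10 class I genes in red and 9 class II genes in blue. The class I genes lie close to 0 at high abundance, from -0.25 for Erap1 to 0.54 for H2-M3, and the class II genes lie above 0.

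Interferon response genes, which share inducers with class I genes, were higher as well. Of 30 genes, all of at least 1 CPM, 7 passed 2-fold upward in the DKO library and none downward, and the median log2 ratio was 0.73. Under T cell identity scaling 13 passed. Among all genes tested, 11.6% passed upward with TMM scaling and 14.5% under T cell identity scaling. The interval lay above 1 for 28 of the 30, against 35.8% of all genes tested. Rsad2 was 3.01-fold higher (2.62 to 3.47), Iigp1, a GTPase induced by interferon gamma, 2.70-fold higher (2.29 to 3.19), Oas2 2.62-fold higher (1.92 to 3.66) and Dhx58 2.29-fold higher (2.06 to 2.54). The ratios of Tap1, Psmb9, Nlrc5 and H2-M3 lay below the median of this list. Whether the 2 sets of values have a common source was not tested.

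Receptors that read class I or Qa-1 differed less uniformly. Klrd1, which encodes CD94, the partner of the NKG2 chains that bind Qa-1, had 259 and 327 CPM and was 1.26-fold higher in the DKO library (1.22 to 1.31). Klrc1, the inhibitory NKG2A chain, had 568 and 469 counts and a ratio of 0.906 (0.800 to 1.03), which T cell identity scaling moved above 1. Klrc2, the activating NKG2C chain, was 2.09-fold higher (1.76 to 2.49), from 206 to 393 counts. Cd8a, whose product binds the class I heavy chain, had a ratio of 0.980 (0.961 to 0.999) that passed 1 under scaling by total counts and by T cell identity genes. Lilrb4, an immunoglobulin-like receptor gene of myeloid cells put on this list, was 3.18-fold higher (2.67 to 3.82). Whether its product reads class I was not tested. Klra2 was 1.91-fold higher (1.57 to 2.34) and Klra10 2.62-fold lower (1.82 to 3.90), both Ly49 genes, for which unique windows were not counted. The other Ly49 genes of at least 1 CPM had intervals above 1, as Klra2 did. Of the 17 receptor genes of at least 1 CPM, 12 had an interval above 1 and 2 one below it, with a median log2 ratio of 0.46. Among all genes tested these shares were 35.8% and 35.7%. At 2-fold, 4 of the 17 passed upward and 1 downward, against 11.6% and 3.6% of all genes tested. The 4 were Lilrb4, Klrc2 and the low Klrc3 and Klra17 (40 and 33 DKO counts), and the lower gene was Klra10. NK cells carry several of these receptors, and their 10 markers summed to 1837 and 2824 CPM. Of the 8 at 1 CPM or more, 7 were above 0 on the log2 scale, and Nmur1 and Khdc1a were at 0 counts in the WT library. Nkg7, at 1222 and 1121 CPM, was the most abundant of the 10 in both libraries, and Gzma went from 160 to 785 CPM. The part of NK cells in these receptor values was not tested.

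**Figure D5:**
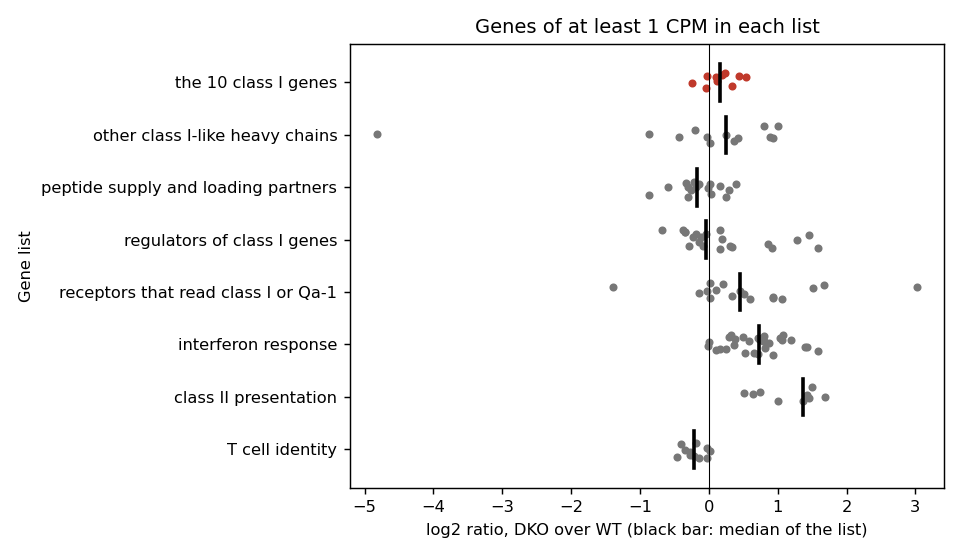
Log2 ratio (DKO over WT, x axis) of each gene of at least 1 CPM in 8 gene lists (rows), with the median of each list as a black bar. The 10 class I genes (red) have a median of 0.16, between the T cell identity genes at -0.22 and the class II genes at 1.37, and scaling by T cell identity genes would move all points up by 0.22.

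Of the 10 genes, 7 lie on chromosome 17 in the MHC region, with B2m on chromosome 2, Erap1 on chromosome 13 and Nlrc5 on chromosome 8. Between Tapbp and H2-M3, 95 other protein-coding genes of the region reached 1 CPM, and 12 of them passed 2-fold upward in the DKO library and 3 downward (Col11a2, Ager and H2-Q1), near the 11.6% and 3.6% of all genes tested. Their median log2 ratio was -0.02, a sign that either of those scalings would turn. The 3 members outside the region had log2 ratios of 0.12, -0.25 and 0.33, which span most of the range of those inside it.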

How the data were processed

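RNA from the sorted cells was sequenced as single-end reads of 50 bases, per the labels' protocols. The authors deposited raw counts per gene as whole numbers. Tools listed in the submitters' processing notes are TopHat2 2.0.8b, bcl2fastq and HTSeq, with the mm9 build, in no stated role. The annotation and strand setting are not given there. Rows that name no gene (5 per library, 71.5% of the WT total and 69.5% of the DKO total, mostly non-unique alignments) were left out. How often a read with several alignments enters them is not stated.

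Counts were scaled by TMM (edgeR 4.0.16, R 4.3.3), with a prior count of 0.5 in log2 ratios. Intervals are exact Clopper-Pearson 95% intervals (scipy 1.17.1), or log-normal for ratios within a library. They and the floors cover counting error only, since without molecular identifiers reads are not independent molecules. Genes needed 1 CPM in either library. Lengths, neighbours and unique windows came from GENCODE M21 transcripts. Genes named beside the 10 members were the top 4 of each list other than the identity and marker lists by absolute log2 ratio, at 5 CPM or more with an interval off 1, plus 21 chosen genes, of which 1 is not reported here. Identity and marker lists are given as counts, sums and examples. Il2rb, Ikzf2, Cd44, Klra7, Icosl, Cxcr5, Cr2, Nkg7, Gzma, H2-T10, Ezh2, H2-Q1, Hspa5, Klrc3, Klra17, H2-DMa, H2-Oa, H2-Ob, marker genes at 0 and MHC region genes were named after their values were seen. Members and lists were chosen with earlier results of these data known. Scripts were tested on simulated data. Alternatives were scaling by total counts, DESeq2 1.42.0 size factors or T cell identity genes, a prior count of 5, and other minimums and length corrections.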

Additional observations from a re-analysis of the deposited data

How the results depend on the processing

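No replicate could be left out with 1 library per genotype. No paired analysis was possible because each genotype has 1 library. The count of genes at least 2-fold different stayed at 0 in both directions under every scaling and minimum tried, and that of genes at least 1.5-fold lower stayed at 0. The count at least 1.5-fold higher went from 0 to 1 (H2-M3) under scaling by total counts and to 2 (H2-M3 and Tap1) under T cell identity scaling. Among all genes tested, 18.8% were 1.5-fold higher or more under scaling by total counts and 24.6% under T cell identity scaling. Those scalings moved the median log2 ratio of the 10 genes from 0.16 to 0.21 and 0.37, by construction, since each multiplies all ratios. DESeq2 size factors and a prior count of 5 moved no ratio out of its own interval, although the interval of Tapbp reached 1.00 with DESeq2 size factors. Scalings of the other lists were added after seeing the data. Under T cell identity scaling, 76.3% of the genes with an interval off 1 were higher in the DKO library, in place of 50.1%, and at 1.5-fold 83.6% in place of 67.7%. Of the 10 genes, 9 then had an interval above 1 and 0 one below it. Shares and subunit ratios depend on the length used. With no length correction, H2-T23 took 4.32% (WT) and 4.40% (DKO) of the heavy chains, H2-M3 0.673% and 0.870%, Tap1 per Tap2 was 0.959 and 1.32, and B2m per heavy chain 0.474 and 0.460. With unique windows these were 6.55% and 6.70%, 0.737% and 0.957%, 1.05 and 1.45, and 0.885 and 0.861. The direction between the libraries was the same in each. Depth limits the rare heavy chains, such as H2-Q1 with 77 and 2 counts, and not the 10 genes, each with over 1000 counts per library.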
